A study of Mus musculus with 60 samples.

Results

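Polyamine metabolism was followed through 9 transcripts, *Odc1*, *Amd1*, *Srm*, *Sms*, *Oaz1*, *Azin1*, *Sat1*, *Smox* and *Paox*, taken by name for their place in the pathway. All 9 had a row among the 55335 genes counted, and all 9 passed the filter on low counts that 15546 genes passed. The counts came from the kidneys of 60 male mice on a C57BL/6J background, 5 at each of 6 Zeitgeber times (ZT0, 4, 8, 12, 16 and 20, lights on at ZT0 and off at ZT12) in each of 2 genotypes. cKOt mice were *Bmal1* lox/lox/*Pax8*-rtTA/LC1 Cre, with rtTA under the *Pax8* promoter, active along the renal tubule. Doxycycline lets rtTA switch on the Cre of the LC1 transgene and thereby deletes the clock factor BMAL1 there. Control mice were their *Bmal1* lox/lox littermates without the 2 transgenes. Both genotypes drank doxycycline (DOX) at 2 mg/ml with sucrose at 20 mg/ml for 2 weeks from 8 weeks of age, and the kidneys were taken 4 weeks after its end from mice fed ad libitum under 12 h of light and 12 h of dark. The labels name the tissue renal tubule, but the methods of the study describe pieces of whole kidney, and podocyte markers were present (*Podxl* had means of 233 and 228 CPM in control and cKOt mice, CPM being reads relative to the library total after scaling), so cells that kept *Bmal1* were part of every sample.

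Polyamines (putrescine, spermidine and spermine) are small cations that bind RNA, DNA and nucleotides and that dividing and protein-making cells need. Ornithine decarboxylase (*Odc1*) makes putrescine from ornithine, *Amd1* makes the decarboxylated S-adenosylmethionine that spermidine synthase (*Srm*) and spermine synthase (*Sms*) then use to lengthen putrescine, and the acetyltransferase SAT1 with the oxidases PAOX and SMOX runs the pathway backwards. Antizyme (*Oaz1*) takes ornithine decarboxylase to the proteasome, antizyme inhibitor (*Azin1*) is an inactive relative of the enzyme that frees it again, and in male rodents the kidney is a classical site of androgen-driven ornithine decarboxylase.

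The 3 stretches of DNA printed here are promoter windows of *Odc1* and *Sms*, shown for their E-box letters, and the frameshift site of *Oaz1*. Promoter entries from RefSeq (build GRCm38.p6) were found for 7 of the 9 genes, all except *Srm* and *Azin1*, each taken as the 250 bases before the gene's RefSeq start. They were searched on both strands for CACGTG, the E-box that BMAL1 and its partner CLOCK, as well as MYC, are known to bind, and for the related CACGCG. The promoter of *Odc1*, the gene with the largest difference among the 9, held no CACGTG and 2 copies of CACGCG, 180 and 101 bases before the start. The letters CACGCG were also found in the window of *Oaz1*, 212 bases before its start, and in the second *Sms* window, 140 bases before its start, and in none of the other 4 genes. In the *Odc1* window 80.0% of the bases were G or C, against a median of 52.4% over all 32851 promoter entries. The window is chr12:17544623-17544872 on the plus strand and is given with CACGCG, on either strand, in capitals; the GENCODE gene model starts within it, at base 17544794. Of the 2 *Sms* entries, 1, chrX:157492288-157492537 on the minus strand, was the only window of the 7 genes with a CACGTG, 196 bases before the start, printed in capitals.

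Odc1 promoter: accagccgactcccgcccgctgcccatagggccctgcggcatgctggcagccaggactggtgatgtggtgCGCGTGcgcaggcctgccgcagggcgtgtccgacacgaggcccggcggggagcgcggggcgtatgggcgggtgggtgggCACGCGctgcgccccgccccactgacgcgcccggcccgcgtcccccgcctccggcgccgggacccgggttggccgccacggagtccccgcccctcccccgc
Sms promoter: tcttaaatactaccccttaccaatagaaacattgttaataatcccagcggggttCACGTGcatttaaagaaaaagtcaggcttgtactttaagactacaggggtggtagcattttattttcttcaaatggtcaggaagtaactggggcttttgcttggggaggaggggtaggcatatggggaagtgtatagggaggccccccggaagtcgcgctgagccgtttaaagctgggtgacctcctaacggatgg

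Over all entries, 6.02% of the windows held CACGTG and 7.62% held CACGCG. These motifs cannot overlap each other, but CACGCG can overlap its own reverse complement. A match is a description of the letters and not a bound site, and a window without one says nothing of the factor. The other sequence is the switch inside the coding region of *Oaz1* (GRCm38, chr10:80828268-80828322, plus strand), where ribosomes must skip a base to make antizyme and do so more often when polyamines are plentiful. Capitals mark the last sense codon, the stop codon TGA and the base after it, and 3 of the 6 annotated coding transcripts of *Oaz1* leave out the T of that stop codon, at base 80828295, to write the shift into the gene model.

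Oaz1 frameshift site: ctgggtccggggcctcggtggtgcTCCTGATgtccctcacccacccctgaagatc

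Between 17791420 and 20906706 reads per mouse were assigned to genes. *Arntl*, which encodes BMAL1, ran from 1.93 CPM in the lowest control mouse (ZT12) to 57.1 CPM in the highest (ZT0), while all 30 cKOt mice lay between 14.6 and 26.8 CPM. The count covers exons outside the deleted part, so it shows the loss of the rhythm and not the deletion itself. Of the 6 mice per group, 5 entered the series, selected by its authors on RNA quality and similarity, and 1 retained cKOt mouse at ZT16 is marked for removal in the study's sample sheet. Among the 30 control mice, 1 stood apart, replicate number 1 at ZT16, which held the highest value of *Srm*, *Oaz1* and *Smox* and the lowest of *Sms*, *Sat1* and *Azin1*. Without it no call of a mean difference, a varying difference, a time effect or a rhythm model changed for the 9 transcripts. The difference of *Sms* at ZT16 went from 0.32 to 0.25 (adjusted p = 0.0201), that of *Oaz1* from 0.29 to 0.27 (adjusted p = 0.0105) and that of *Azin1* from -0.20 to -0.22 (adjusted p = 0.00407).

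Levels were compared between the 9 transcripts per kilobase of annotated exon. *Odc1* stood far above the others, with 767 ± 148 CPM per kilobase (SD, n = 30) in control mice and 374 ± 71.2 in cKOt mice. In control mice it was followed by *Sat1* (116 ± 13.3 CPM per kilobase), *Azin1* (33.9 ± 3.93), *Oaz1* (18.2 ± 3.33), *Amd1* (9.76 ± 1.63), *Srm* (7.53 ± 1.17), *Sms* (2.71 ± 0.277), *Smox* (1.26 ± 0.293) and *Paox* (0.919 ± 0.200). The order was the same in cKOt mice. Neighbours in it differed by more than the larger of their SDs, except that *Smox* and *Paox* in cKOt mice did not (SDs of 0.264 and 0.257 CPM per kilobase). Depth therefore differed widely between members, from 16113 to 63421 reads per mouse for *Odc1* down to 43 to 154 for *Smox* and 48 to 138 for *Paox*. Reads that fit a near copy of a gene equally well are missing from these levels. Members with such copies, among them *Oaz1*, *Amd1* and *Sms*, may therefore stand too low in this order.

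Only reads with 1 place of origin were counted, and 24.3% to 29.4% of all reads had several, which bears on members with near copies. A processed pseudogene, *Oaz1-ps*, shares 95.4% of its 30-base words with *Oaz1* transcripts, and it drew 0 to 16 reads per mouse. *Amd1* has a near-identical paralog, *Amd2*, with 91.2% of words shared and 0 to 7 reads per mouse, and *Sms-ps* shares 100% of its words with *Sms*. *Odc1* has 8 pseudogene rows that share at least 30% of their words with it. They summed to 194 reads per control mouse and 100.3 per cKOt mouse, at most 0.498% of the reads of *Odc1* in any mouse. An annotated small nucleolar RNA, *Gm22748*, lies within *Odc1* on the same strand and had up to 132 reads per mouse. Adding all near-copy rows to their parent genes, an alternative chosen after the data were seen, left the same number of members past the threshold (6), with *Odc1* at a log2 fold change of -1.05. That sum adds only the few reads placed uniquely in a copy. Reads that fit a parent and a copy equally well are in neither row, so the sum cannot show what their loss did.

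The question asked of each transcript was whether its mean over the 6 times differed between cKOt and control mice. *Odc1* and *Azin1* fell, *Srm* and *Sat1* fell slightly, *Sms* and *Oaz1* rose slightly, and *Amd1*, *Smox* and *Paox* did not pass the test (edgeR's quasi-likelihood test, adjusted over all 15546 genes). That is 6 of 9 past an adjusted p of 0.05, 2 higher and 4 lower, where 50.0% of all tested genes passed, 26.8% higher and 23.2% lower. The share of members that passed was therefore near the background. By size, *Odc1* alone of the 9 differed by at least 2-fold, at 48.5% of control in cKOt mice (95% confidence interval 44.7% to 52.5%). Among all genes, 1.07% were lower by at least 2-fold. *Azin1* was next in size, at a log2 fold change of -0.35, where the median absolute log2 fold change of all genes was 0.10. The median log2 fold change was -0.08 over the 9 members and 0.01 over all genes. Fold changes, here and at single times, come from a fit that includes 2 factors for unwanted variation (RUVs factors). The CPM values carry no such correction, so differences of mean CPM need not match the fold changes.

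**Figure D1:**
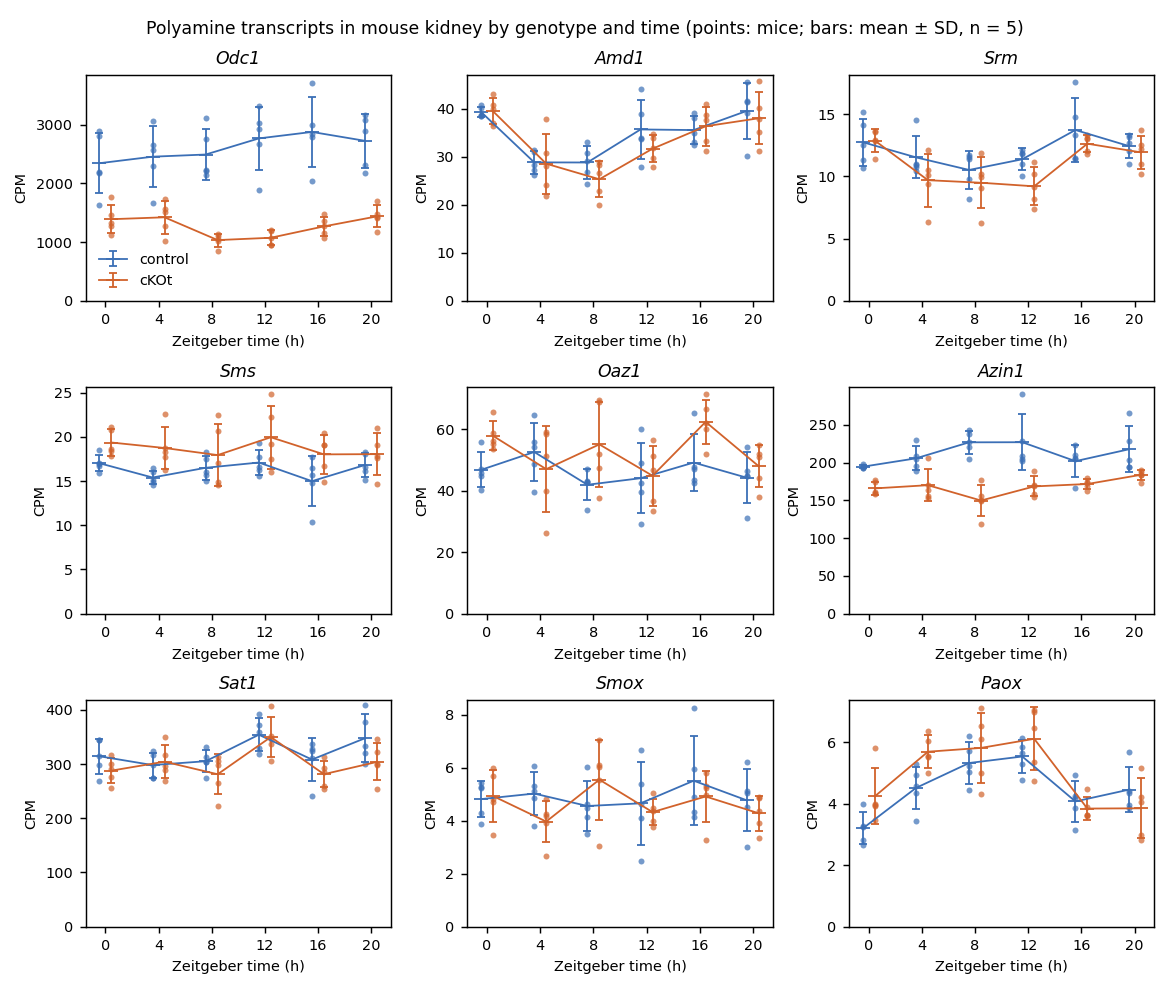
CPM of the 9 transcripts (vertical axes, from 0) against Zeitgeber time in hours, with control mice in blue and cKOt mice in orange. Points are mice and bars are the mean ± SD of 5 mice. The cKOt mice lie below the control mice for *Odc1* at ZT8, ZT12, ZT16 and ZT20 without overlap, whereas the genotypes overlap at every time for *Amd1*, *Srm*, *Sms*, *Oaz1*, *Sat1*, *Smox* and *Paox*.

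*Odc1* (chromosome 12, 17544794 to 17551505, plus strand) was lower in cKOt mice at all 6 times. At ZT0 the control mice had 1641, 2176, 2203, 2810 and 2897 CPM and the cKOt mice 1128, 1282, 1318, 1457 and 1771 CPM. At ZT4 the values were 1672, 2305, 2573, 2662 and 3073 CPM in control mice and 1022, 1282, 1508, 1568 and 1738 CPM in cKOt mice. At both of these times the highest cKOt mouse lay above the lowest control mouse.

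During the second part of the day and the night the ranges of *Odc1* separated. The control mice at ZT8 had 2138, 2214, 2231, 2765 and 3120 CPM, against 856, 1017, 1061, 1110 and 1132 CPM in cKOt mice. ZT12 gave 1894, 2672, 2932, 3024 and 3322 CPM in control mice and 950.3, 950.4, 1065, 1196 and 1213 CPM in cKOt mice. At both times the highest cKOt mouse was well under the lowest control mouse. The night samples of ZT16 held 2036, 2797, 2852, 2995 and 3715 CPM in control mice and 1068, 1163, 1278, 1356 and 1478 CPM in cKOt mice. At ZT20 control mice had 2178, 2311, 2889, 3089 and 3167 CPM and cKOt mice 1178, 1409, 1430, 1475 and 1706 CPM. A separation of this kind, cKOt below control, occurred at 4 or more of the 6 times in 2.20% of all genes, and at 1 or more times in 13.0% (13.9% in the other direction).

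Over all times the control mice spanned 1641 to 3715 CPM of *Odc1* with a median of 2719, and 27 of the 30 cKOt mice lay below the lowest of them. The mean difference was -1.05 ± 0.06 on the log2 scale (SE, adjusted p = 2.57e-22). By time it was -0.77 at ZT0, -0.87 at ZT4, -1.27 at ZT8, -1.34 at ZT12, -1.20 at ZT16 and -0.83 at ZT20, all 6 past the threshold (adjusted p between 6.72e-11 and 6.95e-05). Among all genes, 5.49%, 6.34%, 9.29%, 10.8%, 9.75% and 7.79% were lower at these times in turn, and 6.63%, 6.20%, 10.6%, 10.3%, 10.0% and 5.98% were higher. Whether the difference varied with time did not pass the test (adjusted p = 0.174). It did pass without replicate number 5 (adjusted p = 0.0256). Ordered by mean, the 6 control groups came first, from 2879 CPM at ZT16 to 2346 CPM at ZT0, and the 6 cKOt groups followed, from 1440 CPM at ZT20 to 1035 CPM at ZT8. Among neighbours in that order the gap was larger than both SDs between control ZT0 and cKOt ZT20 and again between cKOt ZT16 and cKOt ZT12, and smaller than the larger SD between all others.

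*Odc1* is not free of what else varied. Within the 6 library batches of the sample sheet, the difference in mean log2 CPM ran from -1.18 to -0.77, lower in cKOt mice in all 6, although the batches do not hold the times in equal numbers. Of a list of 11 other kidney transcripts known to respond to androgen, 10 were lower in cKOt mice and 1 was higher. Among all tested genes, 23.2% were lower and 26.8% higher. The list had a median log2 fold change of -0.52. The 2 steepest falls in this list were those of *Gusb* (β-glucuronidase, -1.08) and *Cyp4b1* (-0.88), and the smallest was that of *Akr1c21* (-0.12). *Cyp7b1* (0.48) was the exception. The proximal tubule markers of segments S1 and S2, 8 genes, summed to 15141 to 18872 CPM among control mice and 14403 to 20476 among cKOt mice. Of the 6 markers of segment S3, 3 were higher and 1 lower, summing to 4030 to 5361 CPM among control mice and 3577 to 5128 among cKOt mice. The lower S3 marker is also 1 of the 10 lower genes of the androgen list. All 5 endothelial, 4 of 5 fibroblast, 4 of 5 macrophage and 3 of 3 tested lymphocyte markers were lower, and 1 of 5 podocyte markers was higher. The part of androgen response or of cell composition in the difference of *Odc1* was not tested, and in whole tissue fewer cells of a type and less RNA per cell cannot be told apart.

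*Amd1* (S-adenosylmethionine decarboxylase, chromosome 10, 40287458 to 40302186) did not pass the test of the mean difference. Its level in cKOt mice was 94.4% of control (interval 89.2% to 99.9%, not corrected for the number of genes tested), with an adjusted p of 0.0821. Control mice spanned 24.3 to 45.5 CPM with a median of 33.8, and cKOt mice 19.9 to 45.8 CPM with a median of 33.6. The fold change passed the threshold with DESeq2's Wald test (adjusted p = 0.0483) and without replicate number 3 (adjusted p = 0.00857).

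The synthases that follow moved in opposite directions. *Srm* (spermidine synthase, chromosome 4, 148591503 to 148594993) was at 91.5% of control in cKOt mice (log2 fold change -0.13 ± 0.04 SE, adjusted p = 0.00366), lower in mean CPM at 5 of 6 times, with control mice between 8.17 and 17.6 CPM and cKOt mice between 6.27 and 13.7 CPM. Without replicate number 1 it no longer passed (adjusted p = 0.0956). *Sms* (spermine synthase, chromosome X, 157443855 to 157492287) was at 113% of control (0.17 ± 0.03 SE, adjusted p = 4.15e-06) and higher in mean CPM at 6 of 6 times. Control mice had 10.4 to 19.3 CPM of *Sms* and cKOt mice 14.6 to 24.9 CPM, with 9 of the 30 cKOt mice above the highest control mouse. At single times *Sms* passed the test at ZT16 alone (0.32 ± 0.08 SE, adjusted p = 0.00135).

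The regulators of ornithine decarboxylase also moved in opposite directions, the inhibitor of antizyme down and antizyme up. *Azin1* (chromosome 15, 38487427 to 38519266, minus strand) was at 78.4% of control in cKOt mice (interval 76.0% to 80.8%), a log2 fold change of -0.35 ± 0.02 (SE, adjusted p = 4.20e-20). *Oaz1* (chromosome 10, 80826656 to 80829290, plus strand) was at 115% of control (0.20 ± 0.03 SE, adjusted p = 2.49e-07), higher in mean CPM at 5 of 6 times. Control mice had 29.3 to 65.5 CPM of *Oaz1* and cKOt mice 26.2 to 71.4 CPM, overlapping at every time. At ZT4 mean CPM of *Oaz1* was lower in cKOt mice (47.1 against 52.6), while the fitted difference was 0.13. *Oaz1* passed at ZT0 (0.29), ZT8 (0.24) and ZT16 (0.29) and at no other time, and with the batch in place of the RUVs factors, which stand for unwanted variation estimated from the replicates, its mean difference no longer passed (adjusted p = 0.0586). The second antizyme, *Oaz2*, was at 87.1 CPM in control mice and 85.4 CPM in cKOt mice and did not pass (adjusted p = 0.269). The second antizyme inhibitor, *Azin2*, was low, at 3.73 CPM in control mice and 3.10 CPM in cKOt mice, and fell by 0.23 on the log2 scale (adjusted p = 0.0021).

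*Azin1* was lower in cKOt mice at all 6 times, with larger fitted differences from ZT4 to ZT12 than at the other times. In mean CPM, ZT4 (206 in control mice, 170 in cKOt mice) was close to ZT20 (218 and 184). At ZT0 its control mice had 192, 193, 194, 196 and 198 CPM and its cKOt mice 158, 159.8, 161, 174 and 177 CPM. ZT4 gave 188, 196, 204, 209 and 230.1 CPM in control mice and 153, 156, 164, 170.5 and 206 CPM in cKOt mice. The ranges were apart at ZT0, and at ZT4 1 cKOt mouse reached into the control range.

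At ZT8, where the gap was widest, control mice had 205, 221, 227, 238 and 243 CPM of *Azin1* and cKOt mice 118, 148, 151, 155 and 176 CPM. ZT12 gave 202, 205, 209, 228 and 291 CPM in control mice and 155, 158, 169.6, 171 and 189 CPM in cKOt mice. Neither time had an overlap. At ZT16 the control values were 166, 204, 207, 209.7 and 223 CPM and the cKOt values 163, 169.5, 173, 174 and 179 CPM, so that 4 cKOt mice fell within the control range, which 1 low control mouse had widened (replicate number 1, the mouse that stood apart). ZT20 gave 195, 195, 204, 228 and 266 CPM in control mice and 174, 184, 184, 187 and 190.5 CPM in cKOt mice, again without overlap. The ranges of *Azin1* were thus apart at 4 of the 6 times. Such a separation at 4 or more times, cKOt below control, occurred in 2.20% of all genes.

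The log2 difference of *Azin1* was -0.23 at ZT0, -0.43 at ZT4, -0.56 at ZT8, -0.47 at ZT12, -0.20 at ZT16 and -0.22 at ZT20, past the threshold at each time. *Azin1* was the only member of the 9 whose difference varied with time (adjusted p = 0.00114), a test that 3.08% of all genes passed. That call rested on the RUVs factors: without them the adjusted p was 0.299, and with the batch in their place 0.362. Within batches the mean log2 difference of *Azin1* ran from -0.45 to -0.20, lower in cKOt mice in all 6.

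**Figure D2:**
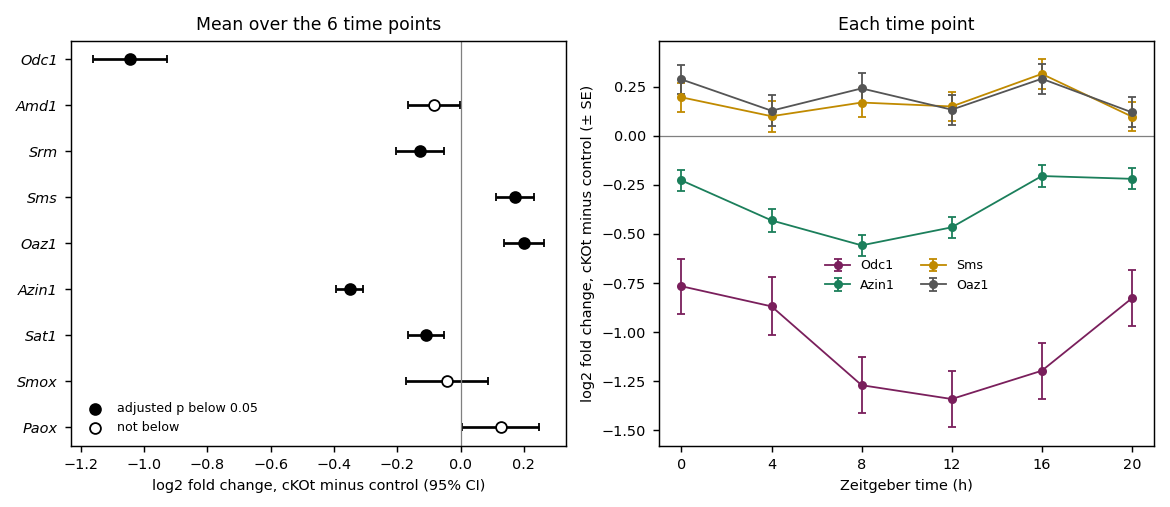
Log2 fold change of cKOt against control mice. Left, the mean over the 6 times for each transcript with its 95% confidence interval (not corrected for the number of genes), filled where the adjusted p is below 0.05. Right, the difference at each Zeitgeber time (hours) ± SE for *Odc1*, *Azin1*, *Sms* and *Oaz1*. Differences come from the fit with the RUVs factors and not from mean CPM. *Odc1* lies between -0.77 and -1.34 and *Azin1* between -0.20 and -0.56, with the lowest values at ZT12 and ZT8, while *Sms* and *Oaz1* lie above 0 throughout.

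The genes of the reverse pathway changed little. *Sat1* (spermidine/spermine acetyltransferase, chromosome X, 155213132 to 155216449), the most abundant of them, was at 92.7% of control in cKOt mice (-0.11 ± 0.03 SE, adjusted p = 9.54e-04) and lower in mean CPM at 5 of 6 times. Control mice spanned 240.4 to 409 CPM with a median of 319 and cKOt mice 223 to 408 CPM with a median of 299, and at no single time did *Sat1* pass the test. With the batch in place of the RUVs factors its mean difference did not pass (adjusted p = 0.075). *Smox* (spermine oxidase, chromosome 2, 131491496 to 131525922) was at 97.0% of control (interval 88.7% to 106%, adjusted p = 0.600), with 2.47 to 8.27 CPM among control mice and 2.68 to 7.06 among cKOt mice. *Paox* (polyamine oxidase, chromosome 7, 140115799 to 140137224) was at 109% of control (interval 100.2% to 119%, adjusted p = 0.0807) and passed without replicate number 3 (adjusted p = 0.00815). A change of *Smox* within that interval was not detectable with these mice at this depth. *Paox* overlaps *Echs1*, on the other strand, which had up to 6136 reads per mouse, and the strand setting of the counting is not given in the sources used here.

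The second question was which transcripts followed the time of day. In control mice 3 of the 9 passed the test of a time effect, *Amd1* (adjusted p = 3.96e-04), *Paox* (4.58e-04) and *Srm* (0.0324), where 30.6% of all genes did. *Srm* missed the threshold in 7 of 14 alternatives, among them without replicate number 1, 3, 4 or 5 (adjusted p 0.0570 to 0.166). In cKOt mice 5 of 9 passed, *Amd1* (4.34e-07), *Paox* (7.08e-05), *Srm* (1.12e-04), *Azin1* (6.51e-04) and *Odc1* (0.0153), where 26.6% of all genes did. Whether a time effect differed between genotypes is the test on varying differences, which among these *Azin1* alone passed. The call for *Odc1* in cKOt mice was lost without replicate number 2 (adjusted p = 0.180), and the call for *Azin1* without the RUVs factors (adjusted p = 0.124) and with the batch in their place (adjusted p = 0.203).

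Cosine curves of 24 h assigned each transcript to the model with the highest BIC weight, a share of support among 5 models, if it reached 0.65. Of the 9 members, 3 went to a rhythmic model (models 2 to 5), 3 to the model without rhythm and 3 to none, where 37.3% of all genes went to a rhythmic model, 34.0% to the model without rhythm and 28.7% to none. *Amd1* had the same rhythm in both genotypes (model 4, weight 0.93), with a trough-to-peak difference of 0.55 on the log2 scale and a peak at ZT19.6. That model held 25.2% of all genes. *Odc1* was assigned a rhythm in cKOt mice only (model 3, weight 0.81, 3.42% of all genes), with a trough-to-peak difference of 0.49 in cKOt mice, peaking at ZT22.2, against 0.25 in control mice. Without replicate number 2 or 3 *Odc1* was assigned to no model, and without number 5 to model 5. *Azin1* was assigned different rhythms (model 5, weight 0.88, 2.37% of all genes), with peaks at ZT9.6 in control mice and ZT19.2 in cKOt mice and trough-to-peak differences of 0.15 and 0.25. Without the RUVs factors *Azin1* was assigned to no model, and without replicate number 4 to model 3. No member was assigned a rhythm in control mice only (model 2, 6.25% of all genes).

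*Srm* and *Paox* were best described by a shared rhythm, with weights of 0.63 and 0.56 that missed the threshold. The fitted shared peaks lay at ZT19.9 for *Srm* and ZT9.1 for *Paox*, with trough-to-peak differences of 0.39 and 0.64. In CPM, *Paox* of control mice went from 3.19 ± 0.523 at ZT0 to 5.53 ± 0.531 at ZT12 (SD, n = 5), and in cKOt mice from 4.23 ± 0.913 to 6.10 ± 1.03. *Amd1* ran the other way, from 39.3 ± 1.06 CPM at ZT0 to 28.8 ± 3.37 CPM at ZT8 in control mice and from 39.4 ± 2.69 to 25.3 ± 3.78 CPM in cKOt mice. *Sms*, *Oaz1* and *Smox* were assigned to the model without rhythm with weights of 0.92, 0.87 and 0.92.

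**Figure D3:**
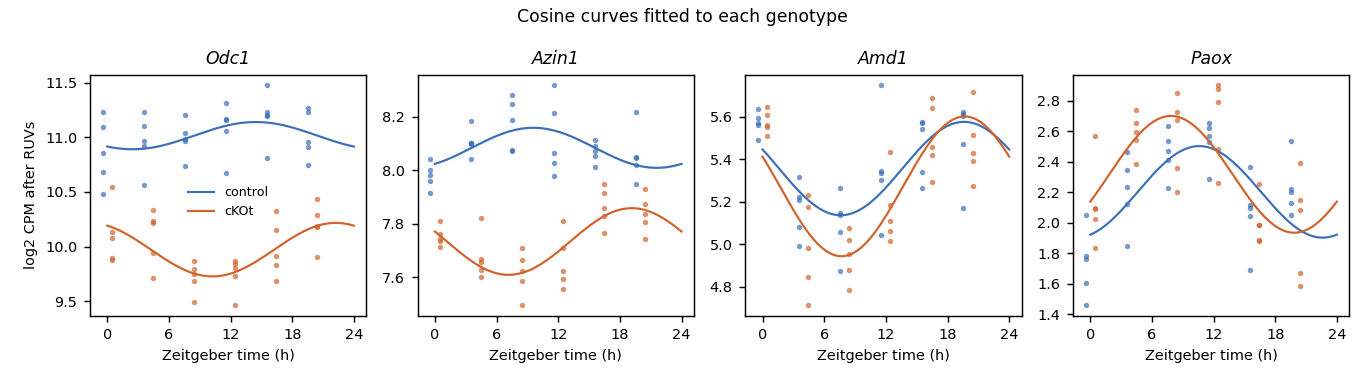
Log2 CPM after removal of the RUVs factors (vertical axes) against Zeitgeber time in hours for *Odc1*, *Azin1*, *Amd1* and *Paox*. Points are mice (control blue, cKOt orange) and lines are 24 h cosine curves fitted to each genotype. The *Amd1* curves of both genotypes peak near ZT19.6, while those of *Azin1* peak at ZT9.6 in control mice and ZT19.2 in cKOt mice.

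The genes whose 12 group means were most like those of a member were named by their Pearson correlation of mean log2 CPM, as a description over 12 points that share libraries. For *Odc1* they were *Pole4* (a DNA polymerase subunit, r = 0.989), *Gm7993* (r = 0.986) and *Cd55* (a complement inhibitor, r = 0.984). These values include the step between genotypes. Over the 6 control means alone, r was 0.759, 0.850 and 0.715 in turn, and over the 6 cKOt means 0.932, 0.817 and 0.868. The log2 fold change of *Pole4* was -0.44. *Gm7993* is a processed pseudogene on chromosome 5 that shares 53.1% of its 30-base words with *Odc1* transcripts, and its log2 fold change, -1.03, was close to that of *Odc1*. Its 25 to 146 reads per mouse cannot be told apart from reads of *Odc1* that carried differences. For *Amd1* the nearest were *Creb1* (r = 0.969), *Anks4b* (r = 0.966) and *Higd1a* (r = 0.962), and for *Sat1* they were *Ndufs1* (r = 0.948), *Clybl* (r = 0.944) and *Col4a3bp* (r = 0.937).

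Around the 9 members, a wider list of 40 genes covers the supply of ornithine and methionine, salvage, hypusine (the eIF5A modification made from spermidine) and transport. Of these, 32 were tested, and 12 were higher, 12 lower and 8 not past the threshold, beside 26.8% higher and 23.2% lower among all tested genes. Its median log2 fold change was 0.01. One of them, *Gatm*, had a difference that varied with time. The largest differences were those of *Arg2*, *Ahcy* and *Slc7a2*.

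*Arg2* (arginase 2, the mitochondrial enzyme that makes ornithine from arginine, chromosome 12, 79130777 to 79156301) rose in cKOt mice at every time. Its control mice spanned 2.09 to 7.15 CPM with a median of 4.82 and its cKOt mice 22.7 to 40.7 CPM with a median of 30.8, so that all 30 cKOt mice lay above the highest control mouse. The log2 fold change was 2.70 ± 0.06 (SE, adjusted p = 6.36e-40), a 6.51-fold higher level, and 0.804% of all genes were higher by at least 2-fold. The lowest of the 6 time points was ZT4 (2.37) and the highest ZT12 (3.06), and the test of a variation with time did not pass (adjusted p = 0.423). Cells that kept or lost *Bmal1* cannot be told apart as its source in these samples. *Arg2* overlaps *Vti1b* on the other strand, and *Arg1*, the cytosolic arginase, was too low to be tested.

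*Slc25a15*, the carrier that exchanges ornithine across the inner mitochondrial membrane, was higher in cKOt mice at 6 of 6 times without overlap (0.37 ± 0.02 SE, adjusted p = 5.25e-26), with 206 to 323 CPM among control mice and 296 to 363 among cKOt mice. That pattern, cKOt above control at all 6 times, occurred in 0.708% of all genes. *Gatm*, which makes guanidinoacetate and ornithine from arginine and glycine, rose by 0.33 ± 0.03 (adjusted p = 6.57e-12), with the difference going from 0.08 at ZT20 to 0.68 at ZT12 (adjusted p of the variation = 0.00264). Among enzymes of this branch that did not pass were *Oat*, which turns ornithine towards proline and glutamate (0.05 ± 0.03 SE, adjusted p = 0.138), and *Agmat*, which makes putrescine from agmatine (0.20 ± 0.10 SE, adjusted p = 0.0962) and was near 2 CPM. Of the ornithine and putrescine supply list, 3 of 6 tested genes were higher, 1 lower and 2 not past the threshold. Over all tested genes the shares were 26.8% higher and 23.2% lower.

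On the methionine side *Ahcy*, which removes S-adenosylhomocysteine after methylation, was lower in cKOt mice at 6 of 6 times without overlap, with 94.0 to 136.9 CPM among control mice and 66.2 to 92.0 among cKOt mice (-0.49 ± 0.02 SE, adjusted p = 6.26e-25), a pattern that 0.675% of all genes had. Among all tested genes, 23.2% were lower and 26.8% higher. The methionine and methylthioadenosine list had 6 of 9 tested genes lower, 2 higher and 1 not past the threshold. The median log2 fold change of its tested genes was -0.06. *Mat2a*, which makes S-adenosylmethionine and was the highest of them, fell by 0.18 on the log2 scale (adjusted p = 6.28e-05). Of the hypusine genes, *Eif5a* fell by 0.15 and the minor form *Eif5a2* rose by 0.37 (adjusted p = 2.82e-12).

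The transport list and the catabolic enzymes outside the 9 members held genes of either direction. *Slc7a2*, a carrier of arginine, lysine and ornithine, fell by 0.46 on the log2 scale (adjusted p = 2.23e-10), from 10.8 ± 1.96 CPM to 7.86 ± 1.56 CPM (SD, n = 30). The transport list had 4 of 10 tested genes higher, 3 lower and 3 not past the threshold, beside 26.8% higher and 23.2% lower among all genes. *Aoc1*, the diamine oxidase that breaks down putrescine, fell by 0.30 (adjusted p = 1.17e-04) and was near 4 CPM. *Myc*, which encodes an E-box-binding factor, had a mean difference of 0.74 ± 0.12 (SE, adjusted p = 1.18e-06) that varied with time (adjusted p = 1.39e-04). It was higher in cKOt mice at ZT4 (1.00), ZT8 (1.38) and ZT12 (2.08), and did not pass at ZT0 (0.64), ZT16 (0.07) or ZT20 (-0.70).

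**Figure D4:**
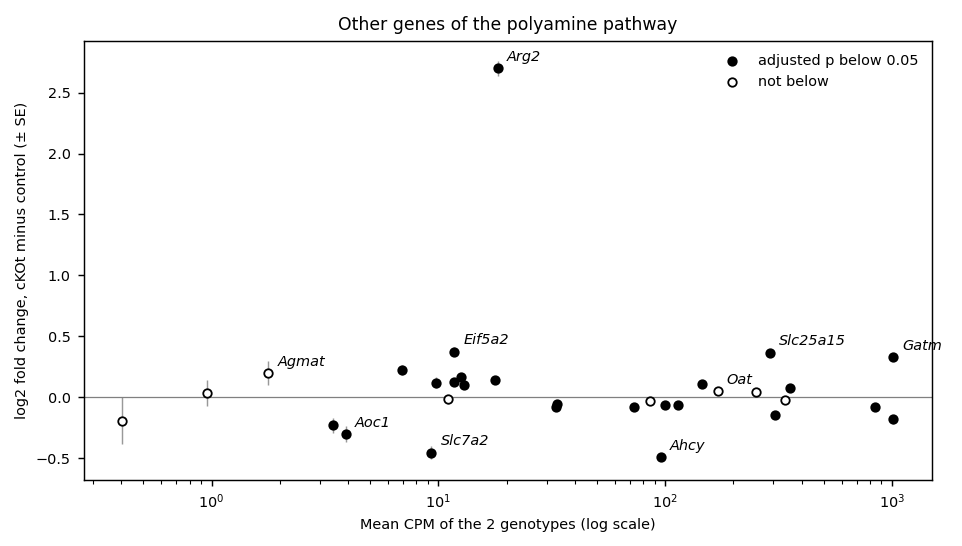
Log2 fold change of cKOt against control mice ± SE (vertical axis) against mean CPM of the 2 genotypes (horizontal axis, log scale) for the 32 tested genes of the wider list, filled where the adjusted p is below 0.05. *Arg2* stands at 2.70, and the other 31 genes lie between -0.49 and 0.37.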

How the data were processed

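RNA was measured in 60 mouse kidneys, 5 per genotype and time. Per the labels, the authors made TruSeq Stranded mRNA libraries, trimmed reads with cutadapt (1.8), aligned them with STAR (2.5.3a) to GRCm38 and counted them with HTSeq (0.9.1). The deposited values are raw counts per Ensembl gene. Rows that name no gene were left out, and reads with several alignments made up 24.3% to 29.4% of all reads. Symbols, positions and exon lengths came from GENCODE M21.

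A gene was kept if any sample reached 1 CPM, and libraries were scaled by TMM. The main fit was edgeR (4.0.16) quasi-likelihood with 12 group means and 2 RUVs factors, with Benjamini-Hochberg adjustment over all 15546 genes and a threshold of 0.05. The contrasts were the genotype difference averaged over time, its variation with time, the difference at each time and the effect of time in each genotype. The dryR models were rewritten in R (4.3.3) and fitted to log2 CPM (prior count 2) after removal of the RUVs factors. P-values weigh differences against the spread between mice that is left after the 2 RUVs factors. The scripts were tested on simulated data. Alternatives used limma (3.58.1), DESeq2 (1.42.0), other filters and covariates, and subsets of mice.

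The members and gene lists were chosen with earlier results of these data known. Text names all members, *Arntl*, paralog and pseudogene rows, *Oat*, *Gatm*, *Arg2*, *Agmat*, *Myc*, wider-list genes past the threshold with an absolute log2 fold change of at least 0.26, and the 3 genes most like *Odc1*, *Amd1* and *Sat1*. *Podxl*, *Gm22748*, *Oaz2*, *Azin2*, *Mat2a*, *Eif5a*, *Gusb*, *Cyp4b1*, *Akr1c21* and *Cyp7b1* were named after their values were seen. For 1 further gene covered by the rule, the result is not reported here. No pair of replicates was identical.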

Additional observations from a re-analysis of the deposited data

Results flagged for a closer look

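In 4 of 108 sets of 5 mice (9 transcripts in 12 groups), 1 mouse stood apart from the other 4 by Dixon's criterion, which chance meets in about 1 of 20 sets. A control mouse at ZT4 had 14.5 CPM of *Srm*, the others 10.4 to 11.0. A control mouse at ZT16 had 240.4 CPM of *Sat1*, the others 312 to 338. The same mouse, replicate number 1, had 65.5 CPM of *Oaz1*, the others 42.4 to 47.6, so these sets are not independent. It held the lowest or highest value among all 30 control mice for 6 of the 9 transcripts; the next mouse in either genotype did so for 5, a cKOt mouse at ZT8. A cKOt mouse at ZT0 had 5.82 CPM of *Paox*, the others 3.48 to 3.99. No mouse stood apart in this way for *Odc1*, *Azin1*, *Amd1*, *Sms* or *Smox*.

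The genotype difference varied with time for *Azin1* (adjusted p = 0.00114), *Gatm* (adjusted p = 0.00264), *Myc* (adjusted p = 1.39e-04) and *Arntl* (adjusted p = 4.86e-16) by edgeR's quasi-likelihood test.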

How the results depend on the processing

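All 142 fold changes of the 9 members under an alternative kept their direction, and 136 also kept their side of the threshold; *Odc1* (-1.06 to -0.996), *Azin1* (-0.37 to -0.33) and *Sms* (0.14 to 0.20) passed under every alternative run, and *Smox* under none. The test of a varying genotype difference was the least stable: members past it numbered 1 in the main fit, 0 without the RUVs factors, 0 with the batch in their place and 1 to 2 without 1 replicate number, and all genes past it numbered 479, 263, 312 and 233 to 429. Genes with a time effect in cKOt mice went from 4142 to 2608 to 3375 without 1 replicate number, lowest without number 4. Of 54 pairs of member and time, 16 passed, 9 without the RUVs factors. In the main fit *Odc1* and *Azin1* passed at all 6 times, and the other calls were of *Oaz1* and *Sms*. At a single time, 5.49% to 10.8% of all genes were lower and 5.98% to 10.6% higher. Members in a rhythmic model rose from 3 to 5 at a BIC weight of at least 0.5 and ran from 3 to 5 without 1 replicate number; without numbers 1, 4 or 5 the 2 members added were *Srm* and *Paox*, and *Odc1* was unassigned without numbers 2 or 3. Without the control mouse at ZT16 that stood apart, an alternative chosen after seeing the data, no member call of mean or varying difference, time effect or rhythm model changed, 462 genes had a varying difference and 4199 a time effect in cKOt mice. Fewer mice enter each fit without a replicate number; the other causes were not tested. Same-numbered mice of different groups did not deviate together (mean correlation of deviations 0.0043, other pairs -0.0010), so the numbers do not pair them; with the replicate block 6 members and 7734 genes passed the mean difference, and 1 member and 465 genes the varying difference. Low counts limit *Smox* and *Paox*.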
